A study of Mus musculus with 6 samples.

Results

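The MYC/MAX/MXD network is the family of basic helix-loop-helix leucine zipper transcription factors that bind DNA as pairs built around MAX. It was examined here through 10 genes, *Myc*, *Mycn*, *Mycl*, *Max*, *Mxd1*, *Mxd3*, *Mxd4*, *Mxi1*, *Mnt* and *Mga*, chosen by family membership, with earlier results of these data known, out of 25690 gene symbols measured. All 10 had enough counts for a test, among 15474 genes that did. RNA was sequenced from CD27SP NK cells (NK1.1+CD27+CD11b-CD3/19-), an immature subset of NK cells, sorted from the BM of mice, with 3 libraries for each of 2 genotypes. Both genotypes carried the *Ncr1cre* transgene and a C57BL/6 background: the control, Ncr1cre Myc wt/wt, had intact *Myc* alleles, and Ncr1cre Myc fl/fl had both *Myc* alleles flanked by loxP sites. Cre was expressed from the *Ncr1* (NKp46) locus, so that deletion could begin only in cells that had switched on *Ncr1*, and CD27SP cells had done so recently. The study's methods describe age-matched and sex-matched mice, and the labels give no age, treatment or time for single libraries, nor whether a library came from 1 mouse or from a pool.

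MYC proteins pair with MAX and bind the E-box CACGTG in promoters, where they raise the transcription of genes for growth, metabolism and division. MXD1, MXD3, MXD4, MXI1 and MNT compete for MAX and for the same sites and recruit SIN3 and histone deacetylase corepressors, and MGA joins MAX to a Polycomb complex. In lymphocytes, *Myc* is induced by growth cytokines and antigen, and MXD genes are typically expressed as cells leave the cycle.

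Promoter sequence was read for the network's own genes, since a factor of this family can act on the gene of another. RefSeq windows (GRCm38.p6, from 250 bases before to 50 bases after a start) existed for 9 of the 10 genes, in 11 windows, with none for *Myc*. The letters CACGTG, a palindrome that reads the same on both strands, occurred in the windows of *Max*, *Mnt* and *Mxd4* and in 7.15% of all 32851 windows. The looser pattern CANNTG, which includes CACGTG, was in 72.3% of them. The 3 windows are shown because *Max* is the network gene other than *Myc* that passed the test below, whereas *Mnt* and *Mxd4*, with the same letters, did not. Each is printed 5′ to 3′ on the strand of its gene from 250 bases before to 10 bases after the start, with CACGTG in capitals. They lie at chr12:76962239-76962498 (minus strand, *Max*), chr11:74830674-74830933 (plus strand, *Mnt*) and chr5:34187701-34187960 (minus strand, *Mxd4*).
Max: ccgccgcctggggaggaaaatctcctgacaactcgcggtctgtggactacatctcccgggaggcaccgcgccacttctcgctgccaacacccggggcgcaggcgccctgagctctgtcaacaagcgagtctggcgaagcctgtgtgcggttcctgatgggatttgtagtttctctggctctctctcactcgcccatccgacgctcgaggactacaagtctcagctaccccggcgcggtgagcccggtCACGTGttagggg
Mnt: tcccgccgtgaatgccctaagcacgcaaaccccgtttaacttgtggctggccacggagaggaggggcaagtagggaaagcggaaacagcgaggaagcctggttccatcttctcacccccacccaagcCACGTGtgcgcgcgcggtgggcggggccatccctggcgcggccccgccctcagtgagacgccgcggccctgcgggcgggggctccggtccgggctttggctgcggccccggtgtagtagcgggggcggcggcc
Mxd4: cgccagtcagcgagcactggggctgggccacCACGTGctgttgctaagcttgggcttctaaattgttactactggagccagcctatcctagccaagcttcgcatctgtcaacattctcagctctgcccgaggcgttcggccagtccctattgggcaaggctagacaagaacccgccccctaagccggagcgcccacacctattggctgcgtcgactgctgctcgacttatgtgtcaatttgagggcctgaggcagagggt
The E-box letters began 3 bases before the RefSeq start of *Max*, 123 bases before that of *Mnt* and 219 bases before that of *Mxd4*. In the annotation used for counts *Max* starts at chr12:76962201, downstream of the printed window. Binding was not measured, and a match of letters is a description of the window.

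Estimated counts summed to between 54550907 and 64962491 in 5 libraries and to 8101219 in Ncr1cre Myc wt/wt library 1, which is therefore the least precise for weakly expressed genes. These totals do not match the single depth per sample that the study's methods give, and the difference was not resolved here. Levels are given as TMM-normalized CPM, in the order of libraries 1, 2 and 4. Differences between genotypes come from the quasi-likelihood test of edgeR with the library number as a block, and the threshold was an adjusted p below 0.01 together with a log2 fold change of 0.5 or more in either direction. Nothing states that libraries came from separate mice, so P-values measure the spread between these libraries. In bulk RNA, fewer cells of a type and less RNA per cell cannot be told apart.

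Of the 10 network genes, 2 fell past the threshold in Ncr1cre Myc fl/fl cells, *Myc* and *Max*, and none rose in the reported edgeR fit or limma-trend (1, *Mycn*, in DESeq2 and in edgeR with no filter on low counts). Of all tested genes 0.872% were past the threshold downwards and 1.28% upwards. At an adjusted p below 0.05 with no limit on the fold change, *Mxd3* was also lower and *Mycn* was higher, which makes 3 lower against 3.38% and 1 higher against 4.45% of all tested genes. By unadjusted p below 0.05, 3 genes were lower and 3 were higher (10.2% and 12.4% of all tested genes). The libraries of the genotypes did not overlap for *Myc*, *Max* and *Mxd3* (all lower) and for *Mycn*, *Mycl* and *Mxd1* (all higher), which is 3 genes in each direction, against 15.1% and 16.2% of tested genes. They overlapped for *Mxd4*, *Mxi1*, *Mnt* and *Mga*. The median log2 fold change of the 10 genes was −0.16, and that of all tested genes was 0.01.

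**Figure D1:**
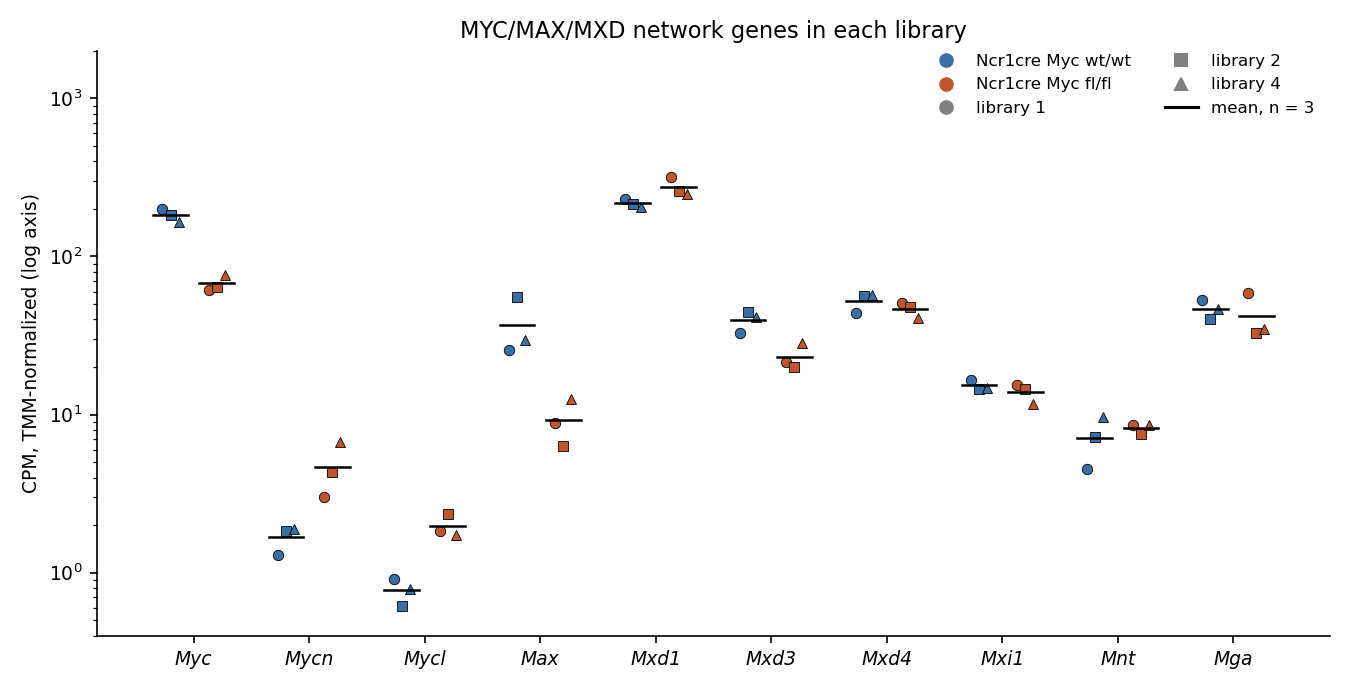
TMM-normalized CPM of the 10 network genes on a log axis in each library, wt/wt in blue and fl/fl in orange, with a line at the mean of 3 libraries. Symbols do not overlap between genotypes for Myc, Mycn, Mycl, Max, Mxd1 and Mxd3.

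The target of the deletion was taken first. *Myc* (ENSMUSG00000022346.15, chr15:61985391-61990374 of GRCm38) kept 37.0% of its control level, with a log2 fold change of −1.44 (SE 0.15, 95% interval from −1.78 to −1.09, adjusted p = 0.00189, edgeR). Without both libraries numbered 1 the adjusted p was 0.0105, which misses the threshold, and no network gene passed in that fit. All 3 fl/fl libraries lay below all 3 wt/wt libraries. In the same-numbered libraries the log2 difference in CPM was −1.70, −1.51 and −1.10, so that the remaining *Myc* signal was largest in library 4.

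The other MYC genes were expressed at a low level in both genotypes. *Mycn* (chr12:12936093-12941914) encodes the MYC protein typical of neural and progenitor cells. Its counts were 10, 103 and 124 in wt/wt libraries and 178, 237 and 400 in fl/fl libraries, corresponding to 1.30, 1.83 and 1.89 CPM against 3.03, 4.33 and 6.70 CPM. The lowest fl/fl library was thus above the highest wt/wt library. The means were 1.67 ± 0.325 and 4.69 ± 1.86 CPM (SD, n = 3 each), a 2.80-fold difference, with a log2 fold change of 1.46 (SE 0.32, adjusted p = 0.0241, edgeR) that missed the threshold of 0.01. Without library number 4, which has the highest *Mycn*, edgeR gave a log2 fold change of 1.22 with an adjusted p of 0.181. The adjusted p was also above 0.05 without library number 2 (0.0753) and without both wt/wt library 1 and the block (0.0658).

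*Mycl* (chr4:122995652-123002485), the third MYC gene, had 7, 35 and 52 counts in wt/wt and 108, 129 and 103 counts in fl/fl libraries. Its levels were 0.909, 0.620 and 0.794 CPM and 1.84, 2.36 and 1.73 CPM, without overlap, and the means were 0.775 ± 0.146 and 1.97 ± 0.338 CPM (SD, n = 3 each). The 2.55-fold difference had a log2 fold change of 1.38 (SE 0.41, adjusted p = 0.0719, edgeR). In edgeR the adjusted p was 0.0315 without the block, 0.0378 without both wt/wt library 1 and the block, and 0.0481 with no filter. It was below 0.05 in these 3 of 12 alternatives and reached 0.350 without library number 2. With 7 counts in the shallow wt/wt library, *Mycl* was the least precisely measured gene of the network, and its 95% interval ran from 0.47 to 2.30. *Mycn* and *Mycl* together amounted to 0.853 ± 0.226 TPM for every 100 TPM of *Myc* in wt/wt and to 6.98 ± 1.07 in fl/fl libraries (SD, n = 3 each), where TPM is the deposited abundance, scaled for transcript length and library. Even in Ncr1cre Myc fl/fl cells, the summed TPM of *Mycn* and *Mycl* was therefore small beside the *Myc* signal that was left. Whether that signal came from intact or from deleted alleles was not tested.

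*Max* (ENSMUSG00000059436.13, chr12:76937269-76962201) encodes the common partner of the network's proteins and had the largest fold change among the 10 in the reported fit. It had 25.7, 55.7 and 29.8 CPM in wt/wt libraries and 8.88, 6.29 and 12.6 CPM in fl/fl libraries. Every fl/fl value was below every wt/wt value, although wt/wt library 2 stood well above the other two controls. The means were 37.1 ± 16.3 and 9.25 ± 3.16 CPM (SD, n = 3 each), so 25.0% of the control level was left, with a log2 fold change of −1.96 (SE 0.33, 95% interval from −2.71 to −1.22, adjusted p = 0.00889, edgeR). The same-numbered differences were −1.53, −3.15 and −1.24 on the log2 scale of CPM, the middle one setting the highest control against the lowest fl/fl library. Without both libraries numbered 2, edgeR gave −1.37 with an adjusted p of 0.0130, which is smaller than the change of *Myc* (−1.39) and of *Mycn* (1.58) in that fit. Without both libraries numbered 1 it gave −2.18 with an adjusted p of 0.0271. *Max* passed the threshold in 6 of 13 alternative fits and had an adjusted p below 0.05 in all 13.

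**Figure D2:**
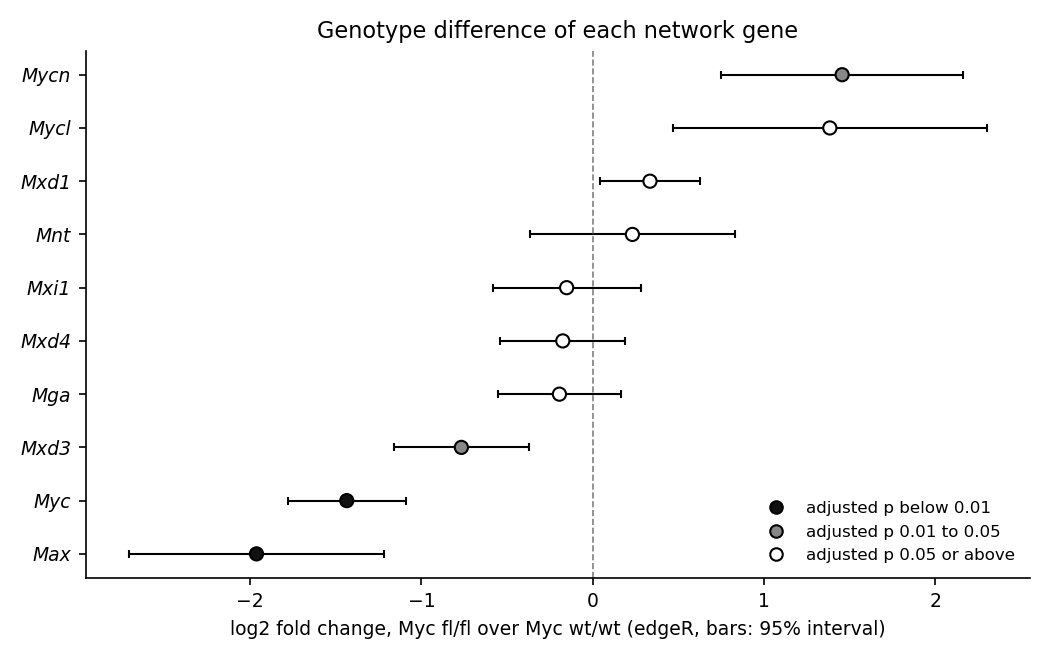
Log2 fold change of each network gene, fl/fl over wt/wt, from edgeR, with bars for the 95% interval and the fill giving the adjusted p. Max (−1.96) and Myc (−1.44) are the genes below an adjusted p of 0.01, and Mycn and Mycl lie on the other side with wide intervals.

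Both major coding transcripts of *Max* were lower. Max-201, the main coding form, had 14.4, 31.8 and 18.1 CPM in wt/wt and 4.70, 2.89 and 5.25 CPM in fl/fl libraries, or 20.0% of the control mean. Max-202 had 7.75, 19.9 and 8.29 CPM against 2.33, 1.67 and 5.04 CPM, or 25.1%. Neither transcript overlapped between genotypes. The minor coding form, Max-205, did overlap, with 2.70, 1.42 and 0.497 CPM against 0.191, 0.353 and 0.565 CPM. Max-202 differs from Max-201 by a cassette exon that adds 9 residues, and it lies at chr12:76961263-76961289 on the minus strand of GRCm38. The exon is shown because it is what separates both major forms, with the whole exon in capitals and in the sense of the gene.
Max-202 exon: GAAGAGCAACCGAGGTTTCAATCTGCG
This form made up 35.1%, 38.5% and 31.5% of the sum of Max-201 and Max-202 in wt/wt libraries and 33.2%, 36.5% and 49.0% in fl/fl libraries, so the ranges overlapped. A single-exon retained intron form, Max-203, stood apart from the coding forms, with 1.18 ± 0.486 CPM in wt/wt and 1.03 ± 0.166 CPM in fl/fl libraries (SD, n = 3 each), or 87.5% of the control mean with overlapping ranges. Summed over Max-201, Max-202 and Max-205, coding *Max* was 34.9 ± 15.8 CPM in wt/wt and 7.66 ± 2.99 CPM in fl/fl cells (SD, n = 3 each), 21.9% of the control. All other *Max* transcripts together were 2.13 ± 1.07 and 1.59 ± 0.191 CPM. The division of reads between transcripts was estimated by the authors' quantifier, and no test was run on single transcripts.

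Among the antagonists, the libraries of the genotypes were apart for *Mxd1* and *Mxd3*, neither of which passed the threshold. *Mxd1* (chr6:86647042-86669161), which is induced in differentiating cells and represses MYC targets, had 232, 215 and 205 CPM in wt/wt and 318, 258 and 249 CPM in fl/fl libraries. The fl/fl libraries were all higher and fl/fl library 1 stood above its own group. The means of 217 ± 13.6 and 275 ± 37.5 CPM (SD, n = 3 each) differed 1.27-fold, with a log2 fold change of 0.33 (SE 0.13, adjusted p = 0.164, edgeR), which did not pass. The 95% interval of that difference ran from 0.04 to 0.63. *Mxd3* (chr13:55325168-55329823) is unusual in the family in being expressed in dividing cells, in S phase. It had 32.7, 44.5 and 41.1 CPM in wt/wt against 21.5, 20.1 and 28.3 CPM in fl/fl libraries, with no overlap. Its means were 39.5 ± 6.06 and 23.3 ± 4.41 CPM (SD, n = 3 each), or 59.0% of the control, and the log2 fold change was −0.77 (SE 0.18, adjusted p = 0.0299, edgeR). Its adjusted p was above 0.05 in 4 of 13 alternatives, namely 0.0633 without library number 1, 0.142 without library number 2, 0.0501 with library size only and 0.0630 with effective length offsets. Between 89.5% and 93.7% of *Mxd3* counts belonged to its single coding form, Mxd3-201. *Mxd3* shares 105 exonic bases with *Prelid1* on the opposite strand, 4.43% of its exonic length. The libraries do not record strand, and *Prelid1* had between 232 and 345 CPM with overlapping genotypes.

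Among genes of the cell cycle, 10 listed proliferation genes were all lower in fl/fl cells, 2 past the threshold (*Mki67*, −1.26, and *Birc5*, −1.03; *Cdk1* and *Top2a* had −0.91 and −0.84) and 9 at an adjusted p below 0.05 (0.872% and 3.38% of all tested genes), with a median log2 fold change of −0.86. The count past the threshold was 0 without library number 1, 0 without library number 2, 7 without library number 4, 0 with effective length offsets, 5 in edgeR without the block and 9 in DESeq2. Their summed level was 1408 to 1795 CPM in wt/wt and 689 to 981 CPM in fl/fl libraries. *Mxd3* and *Max* moved in the same direction as this list, and its part in their change was not tested.

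The remaining antagonists did not separate the genotypes. *Mxd4* (chr5:34173883-34187720), a MXD gene of resting and differentiating cells, had 52.3 ± 7.19 CPM in wt/wt and 46.4 ± 5.08 CPM in fl/fl libraries, with a log2 fold change of −0.18 and a 95% interval from −0.54 to 0.19. *Mxi1* (chr19:53310518-53375810), whose protein is also known as MXD2, had 15.3 ± 1.03 and 13.9 ± 2.03 CPM, a log2 fold change of −0.15 and an interval from −0.58 to 0.28. *Mnt* (chr11:74830920-74845725) encodes the broadly expressed repressor of the family. It had 4.55, 7.18 and 9.66 CPM in wt/wt and 8.58, 7.54 and 8.56 CPM in fl/fl libraries, so that the control libraries alone spanned a wider range than the difference of 0.23 on the log2 scale (interval from −0.37 to 0.83). The sign of that difference turned without both libraries numbered 1 (−0.05). *Mga* (chr2:119897228-119969581), the largest gene of the network and a scaffold of the Polycomb complex PRC1.6, had 46.6 ± 6.42 and 42.1 ± 14.4 CPM, with fl/fl library 1 at 58.7 CPM above every control. Its log2 fold change was −0.19 (interval from −0.55 to 0.16). Adjusted p-values in edgeR lay between 0.536 and 0.716 for these 4 genes, and the intervals leave room for changes of up to 0.83 on the log2 scale.

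Single transcripts are described next, without a test. Separation of the libraries is common, at 15.1% of tested genes downwards and 16.2% upwards, and its share over all transcripts was not computed. *Myc* itself did not fall evenly over its 8 annotated coding forms. Myc-201 and Myc-205, which have the same start, end and counts, each had 25.7, 51.4 and 47.6 CPM in wt/wt and 23.9, 23.4 and 29.8 CPM in fl/fl libraries. This was 61.8% of the control mean, or 51.9% without wt/wt library 1, the only control within the fl/fl range. Myc-204 had 83.7, 19.3 and 18.3 CPM against 0.946, 1.91 and 1.53 CPM, or 3.62% (7.80% without wt/wt library 1), and Myc-206 had 42.9, 35.1 and 33.6 CPM against 2.30, 10.4 and 8.34 CPM, or 18.9%, both without overlap. Myc-207 had 77, 852 and 160 counts in wt/wt libraries and was at 0 in every fl/fl library. The share of the gene held by Myc-204 was 41.8% in the shallow wt/wt library 1 and 10.5% and 11.1% in the other controls. *Mxi1* is transcribed from an upstream start (Mxi1-201) and from a downstream start (Mxi1-202 and Mxi1-203), which give different first exons. Mxi1-201 had 1.74, 3.29 and 5.30 CPM in wt/wt and 1.57, 1.54 and 0.935 CPM in fl/fl libraries, or 39.2% of the control mean without overlap, although wt/wt library 1 came close to the fl/fl values. The downstream forms were at 11.9 ± 2.65 and 12.5 ± 1.68 CPM (SD, n = 3 each), or 105% of the control. The deposited lengths of the 3 *Mxi1* transcripts differ from those of the annotation used here, as they do for none of the other 53 network transcripts. *Mxd1* carried more than its coding form: Mxd1-204, annotated as a retained intron with 2 exons, held 54.4% to 58.5% of the gene's counts, and Mxd1-201, the coding form, 41.3% to 45.3%. Mxd1-204 had 133, 118 and 120 CPM in wt/wt and 173, 142 and 142 CPM in fl/fl libraries, and Mxd1-201 had 97.6, 96.1 and 84.5 CPM against 144, 115 and 104 CPM. Both forms were thus higher in fl/fl cells and kept similar shares of the gene. Mxd4-204, also a retained intron form, was at 6.88 ± 0.302 and 4.42 ± 0.337 CPM (SD, n = 3 each) with no overlap, whereas the coding forms of *Mxd4* overlapped, at 45.1 ± 7.01 and 41.8 ± 4.82 CPM. For *Mycn*, the split between Mycn-201 and Mycn-202 changed from library to library, from 0% to 98.2% of the gene for Mycn-201, so neither form could be followed alone.

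**Figure D3:**
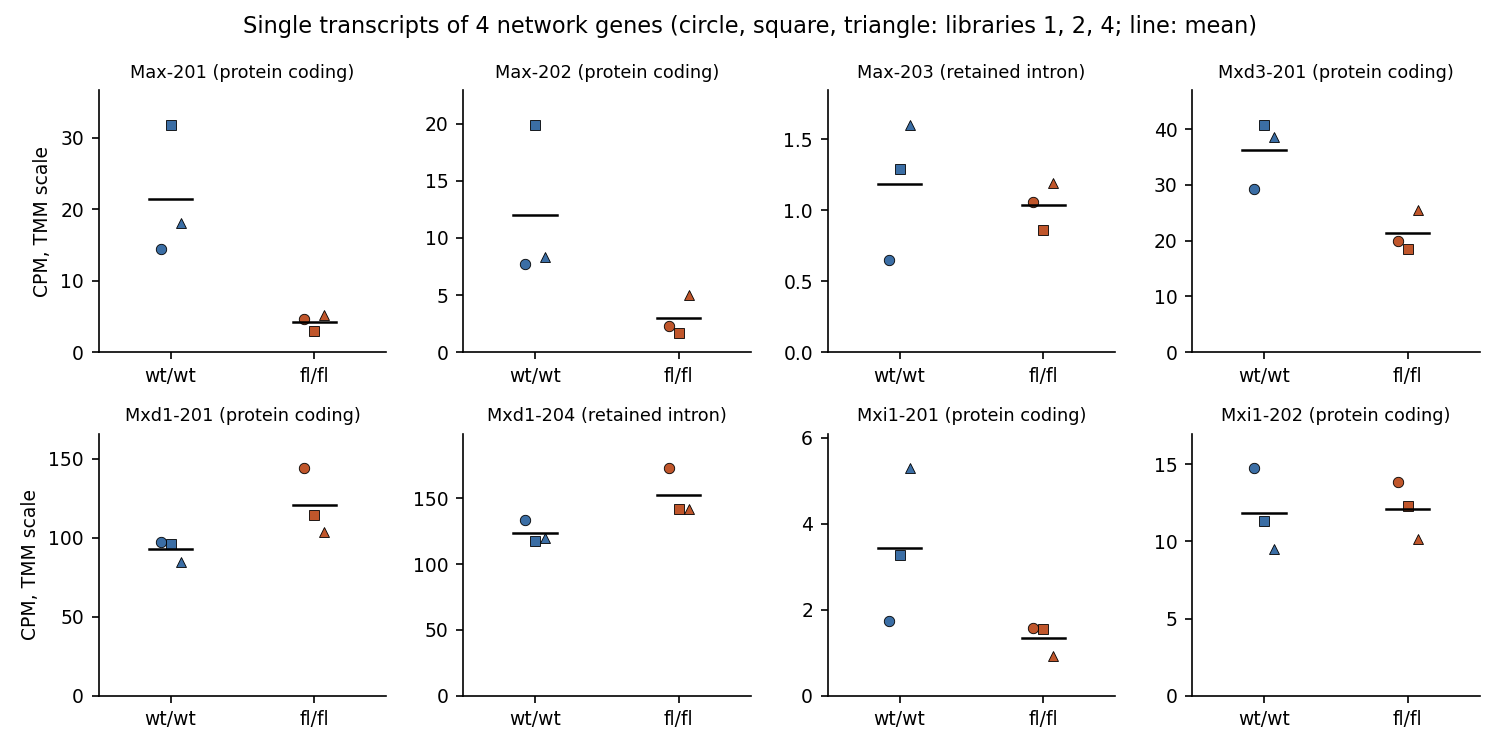
CPM of 8 single transcripts of Max, Mxd3, Mxd1 and Mxi1 in each library, wt/wt in blue and fl/fl in orange, with a line at the mean and a separate linear axis from 0 in each panel. Coding Max-201 and Max-202 are low in every fl/fl library, whereas Max-203 and Mxi1-202 overlap between genotypes.

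Levels of different genes were compared in TPM as deposited. In wt/wt cells the order was *Myc* (161 ± 16.7 TPM), *Mxd1* (91.7 ± 4.78), *Mxd3* (48.2 ± 9.03), *Max* (38.5 ± 17.0), *Mxd4* (29.1 ± 5.55), *Mga* (10.8 ± 0.392), *Mxi1* (3.95 ± 0.160), *Mnt* (2.40 ± 0.958), *Mycn* (1.01 ± 0.255) and *Mycl* (0.343 ± 0.0461, SD, n = 3 each). Neighbours whose ranges over libraries overlapped were *Mxd3* with *Max* and *Max* with *Mxd4*. In fl/fl cells *Mxd1* came first with 124 ± 16.7 TPM, followed by *Myc* (55.8 ± 6.61), *Mxd3* (30.3 ± 5.58), *Mxd4* (28.7 ± 4.68), *Max* (12.0 ± 3.16), *Mga* (11.3 ± 4.96), *Mxi1* (3.80 ± 0.581), *Mnt* (2.98 ± 0.258), *Mycn* (2.98 ± 1.06) and *Mycl* (0.946 ± 0.160, SD, n = 3 each). Here the ranges of *Mxd3* and *Mxd4*, of *Max* and *Mga*, of *Mxi1* and *Mnt*, and of *Mnt* and *Mycn* overlapped. *Myc* and *Mxd1* thus exchanged first and second place, and in each genotype their ranges were apart.

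That exchange depended on which transcripts were counted. Only 31.4% of *Mxd1* TPM in wt/wt and 31.3% in fl/fl cells came from its coding transcripts, the rest being mostly the retained intron form. On transcripts annotated as coding *Mxd1* was at 28.8 ± 2.76 and 38.7 ± 7.81 TPM, and *Myc* stayed above it in every fl/fl library. All 8 *Myc* forms are annotated as coding, so its TPM was the same on this scale. Whether the *Myc* RNA left in fl/fl cells could encode protein was not tested. *Myc* per *Mxd1* was 1.78, 1.84 and 1.65 in wt/wt and 0.355, 0.464 and 0.555 in fl/fl libraries over all transcripts. Over coding transcripts it was 5.41, 5.84 and 5.50 against 1.07, 1.48 and 1.94. The ratio was therefore lower in each fl/fl library than in each wt/wt library on both scales. With *Myc* as the deleted gene, a lower ratio followed from the design.

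The MYC genes made up 46.1%, 40.2% and 39.9% of the network's TPM in wt/wt and 18.2%, 23.0% and 24.8% in fl/fl libraries. The difference of −20.0 percentage points had p = 0.1 in a two-sided exact permutation test, which is the smallest value that 3 libraries against 3 can give. *Myc* alone, the deleted gene, held 41.7% of the network's TPM in wt/wt libraries. A lower share therefore followed from the design and is a description. The summed antagonists were at 172, 201 and 186 TPM in wt/wt and 229, 182 and 191 TPM in fl/fl libraries, with overlapping ranges (exact permutation p = 0.5). On coding transcripts their means were 110 ± 14.0 and 105 ± 13.7 TPM. *Max* per TPM of all its partners was 0.0779, 0.155 and 0.0935 in wt/wt and 0.0414, 0.0375 and 0.0589 in fl/fl libraries (exact permutation p = 0.1). The ratio of *Myc* to *Max*, in contrast, was 4.64 ± 1.68 and 4.80 ± 0.980 (SD, n = 3 each; exact permutation p = 1.0), with wide overlap. That ratio was taken over all transcripts. Coding forms held 74.0% of *Max* TPM in wt/wt and 55.5% in fl/fl cells, and the ratio over coding forms was not computed. Over the whole network the sum was 387 ± 39.6 TPM in wt/wt and 273 ± 23.5 TPM in fl/fl cells.

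**Figure D4:**
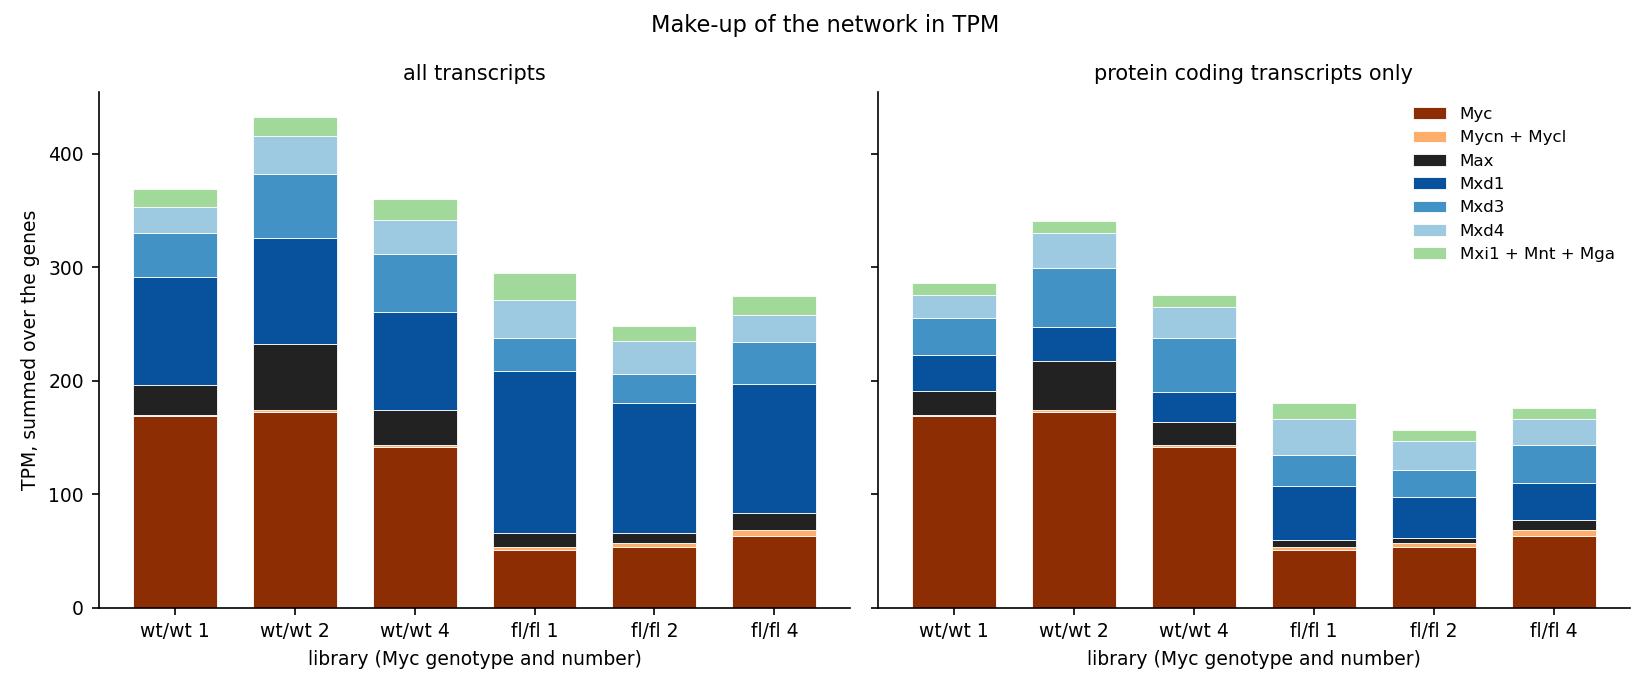
Summed TPM of the network genes in each library, stacked by gene, over all transcripts on the left and over protein coding transcripts on the right. Myc is the tallest part in the wt/wt libraries of both panels, whereas in the fl/fl libraries Mxd1 is the tallest on the left and Myc on the right.

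Genes that work with the network were followed in lists. The MLX arm, a parallel set of MAX-like factors that sense nutrients, did not pass in any of 3 genes in edgeR, DESeq2 or limma-trend (0 at an unadjusted p below 0.05 in edgeR), with log2 fold changes of 0.06 (*Mlx*), −0.06 (*Mlxip*) and 0.41 (*Mlxipl*). Among 20 cofactors of MYC, 1 rose, *Pim1*, a kinase induced by cytokine signals, by 1.05 on the log2 scale (adjusted p = 0.00577, edgeR), beside 1.28% of all tested genes. That call was lost in 6 of 14 alternatives, among them limma-trend and the fits without library number 1 or 2. The acetyltransferase gene *Kat2a* (−0.77, adjusted p = 0.0192, edgeR) and the helicase gene *Ruvbl1* (−0.75, adjusted p = 0.0252) were lower without passing in the reported fit, whereas 2 cofactors passed downwards in DESeq2 and 2 in edgeR with no filter on low counts. At an adjusted p below 0.05, 3.38% of all tested genes were lower. The list had 7 genes at an unadjusted p below 0.05 in the reported fit and a median of −0.08. Of 20 genes that control the stability of MYC protein none passed in the reported edgeR fit or limma-trend, 3 in DESeq2, 1 in edgeR with no filter and 1 without library number 4. At an unadjusted p below 0.05 in edgeR there were 6, beside 10.2% lower and 12.4% higher among all tested genes. At an adjusted p below 0.05, 3 were lower (3.38% of all tested genes), namely *Cip2a* (−0.87) and *Set* (−0.55), inhibitors of the phosphatase PP2A, and the mitotic kinase gene *Aurka* (−0.61), with a median of −0.11. Corepressors of the SIN3 and histone deacetylase complex, which MXD and MNT proteins recruit, had 0 of 12 genes at an adjusted p below 0.05 in edgeR and 0 past the threshold in DESeq2 and limma-trend, 1 at an unadjusted p below 0.05, and a median of −0.09. Among 13 genes of PRC1.6, none passed in the reported edgeR fit or limma-trend, 1 in edgeR without the block, 1 in edgeR with no filter and 2 in DESeq2, and 4 had an unadjusted p below 0.05 in the reported fit, to be read beside the same shares. *Cbx3* (−0.72, adjusted p = 0.0151, edgeR) and *Tfdp1* (−0.52, adjusted p = 0.0473) were lower, and the median was −0.11. All these medians stand beside 0.01 for all tested genes. *Hdac1*, *Hdac2* and *Wdr5* belong to more than 1 of these lists.

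Of 30 genes taken as MYC targets, 4 fell past the threshold and 15 were lower at an adjusted p below 0.05 (0.872% and 3.38% of all tested genes), with a median log2 fold change of −0.56. The count of 4 became 1 without library number 1, 1 with effective length offsets, 8 without the block, 12 with no filter and 15 in DESeq2. The 4 were *Nop58* (−1.29) and *Npm1* (−1.12), nucleolar proteins of ribosome production, *Srm* (−1.14), an enzyme of polyamine synthesis, and *Slc7a5* (−1.53), an amino acid transporter. Of the 26 listed as activated by MYC, 25 had a negative fold change. Of the 4 listed as repressed, *Cdkn1a*, the gene of the cell cycle inhibitor p21, was higher by 1.19 (adjusted p = 0.0214, edgeR), and the others lay between −0.01 and 0.23. Only 1 other measured gene symbol lay within 1 Mb of *Myc*, and it was at 0 CPM in every library. Expression around *Myc* could therefore not be compared. Among the genes whose log2 CPM followed *Myc* most closely over the 6 libraries were *Slc16a1* (Pearson r = 0.995), a lactate transporter, and *Mthfd1* (0.994), an enzyme of one-carbon metabolism, of 8790 genes compared. These values include the difference between genotypes and are a description.

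Markers of other cells moved with genotype as well. The NK cell list was present throughout, at 11748 to 11971 CPM in wt/wt and 13241 to 13715 CPM in fl/fl libraries, with 0 of 10 genes past the threshold in edgeR (3 at an unadjusted p below 0.05), and *Ncr1*, *Klrb1c*, *Cd27* and *Itgam* overlapped between genotypes. The summed levels of several progenitor and myeloid lists were higher in fl/fl cells. The granulocyte-monocyte progenitor list was at 82.4, 104 and 125 CPM against 554, 522 and 878 CPM, with 5 of 5 genes past the threshold (1.28% of all tested genes were past it upwards), and the basophil and mast cell list at 99.4, 82.1 and 101 CPM against 518, 523 and 256 CPM, with 9 of 10. Monocyte markers ran from 1668 to 1873 CPM and from 2098 to 2387 CPM (4 of 8 past it), erythroid markers from 46.6 to 285 CPM and from 569 to 1188 CPM (3 of 8), neutrophil markers from 20.3 to 33.2 CPM and from 22.7 to 41.3 CPM, which overlap (1 of 9 tested; at an adjusted p below 0.05, 4 higher and 1 lower), plasmacytoid dendritic cell markers from 26.5 to 32.6 CPM and from 32.9 to 39.1 CPM (1 of 3 tested) and megakaryocyte markers from 3.38 to 9.83 CPM and from 16.6 to 58.5 CPM (1 of 4). B cell markers (4.55 to 8.64 CPM against 11.5 to 15.6 CPM) and T cell markers (349 to 652 CPM against 371 to 550 CPM) had none past it, and *Vpreb1* of the B cell list was at 0 in every wt/wt library. *Mycn* was highest in fl/fl library 4, in which the granulocyte-monocyte progenitor, neutrophil, B cell and T cell lists were highest of the 3 and the basophil, monocyte, erythroid, plasmacytoid dendritic cell and megakaryocyte lists lowest, and *Mxd1* was highest in fl/fl library 1. The part of these cells in the higher *Mycn*, *Mycl* and *Mxd1*, and in the *Myc* signal that was left, was not tested.

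**Figure D5:**
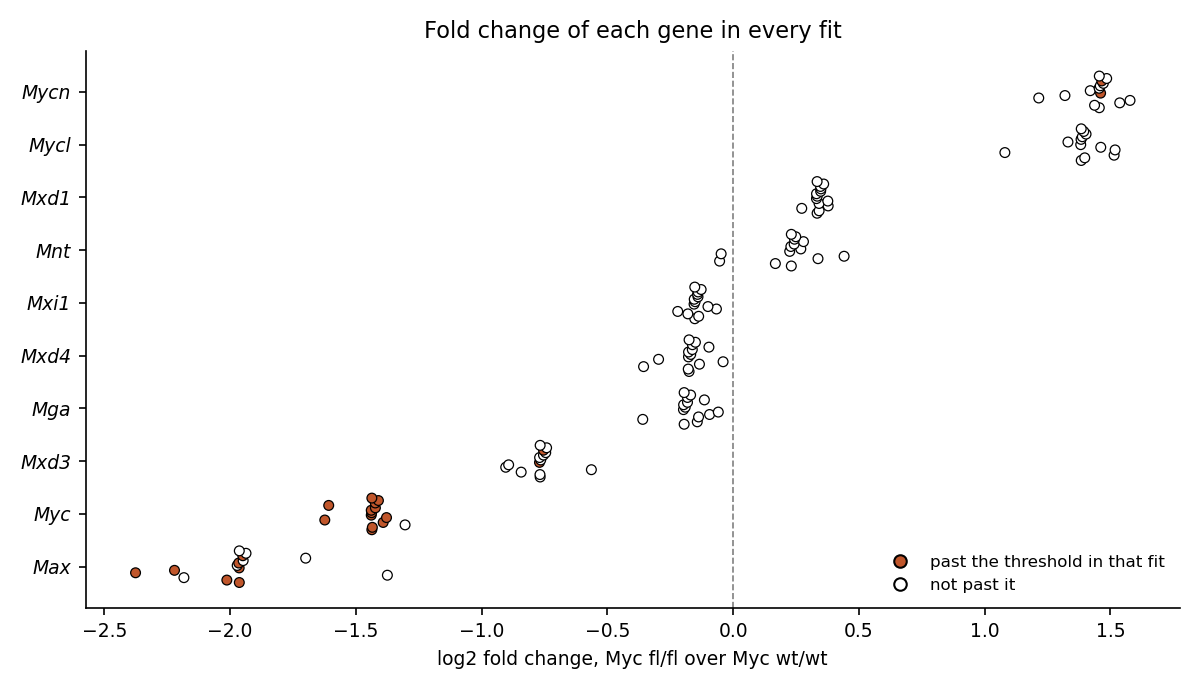
Log2 fold change of each network gene, fl/fl over wt/wt, in the reported fit and in every alternative fit, 1 point each, filled where the gene passed the threshold in that fit. Signs hold for 9 genes, Mnt crosses 0 in 2 fits, and Max spreads from −2.38 to −1.37.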

How the data were processed

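CD27SP NK cells were sorted, and libraries were made by the authors with the SMART-Seq v4 kit, which records no strand, and sequenced single end. The authors deposited, for each transcript, an estimated count (not normalized), a TPM value and an effective length. The columns are those of kallisto and the identifiers are mouse, whereas the methods and labels name Salmon and GRCh38; the version is not given in the sources used here. Here, 100239 of 100583 transcripts were matched to GENCODE M21 (GRCm38), and estimated counts were summed by symbol and rounded. Genes were filtered with filterByExpr and tested with edgeR 4.0.16 in R 4.3.3 (TMM, library number as a block, since paired analyses are named in the paper), with Benjamini-Hochberg adjustment over all 15474 genes. The SE is the log2 fold change divided by the root of F. TPM sums were compared by exact permutation tests. Members, lists, markers and tests were chosen with earlier results of these data known. All 10 members, the 4 genes with the smallest adjusted p below 0.05 in each list, and the 3 genes closest to *Myc* were to be named (1 of the 3 is not reported here), and marker lists are given as sums. *Cdkn1a*, *Mlx*, *Mlxip*, *Mlxipl*, *Hdac1*, *Hdac2*, *Wdr5*, *Prelid1* and *Vpreb1* were named after their values were seen. Alternatives were no block, each replicate left out, DESeq2 1.42.0, limma-trend 3.58.1, other scalings, length offsets, other count filters and thresholds. Sums over coding transcripts only were added after seeing the data. Tests were tried on simulated counts. Replicates of a genotype differed by more than counting noise (chi-square per degree of freedom 40.1 to 101.6).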

Additional observations from a re-analysis of the deposited data

How the results depend on the processing

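The 2 genes past the threshold downwards were 0 to 2 when 1 replicate number was left out (0 without replicate 1, 1 without replicate 2). The count was 1 under limma-trend, library size only, effective length offsets, at least 10 counts in every library, and the largest adjusted p of 3 tools. It was 2 without the replicate block, which changed no call of a network gene at the threshold. The count upwards was 0, and 1 (*Mycn*) with DESeq2, with no filter on low counts, and at the looser threshold (adjusted p under 0.05, any fold). *Myc* passed in 12 of 13 alternatives and lay between −1.62 and −1.30; without replicate 1 its adjusted p in edgeR was 0.0105. *Max* ranged from −2.38 to −1.37, *Mycn* from 1.22 to 1.58, *Mycl* from 1.08 to 1.52, *Mxd1* from 0.27 to 0.38 and *Mxd3* from −0.90 to −0.56. *Mxd3* passed with DESeq2 (adjusted p = 0.00164) and with no filter (0.00954), and its highest adjusted p was 0.142, and *Mycn* with the same settings (0.00128 and 0.00783). *Mnt* (0.23) ran from −0.054 to 0.44 with 1 replicate left out, reversed without replicate 1 (adjusted p = 0.940), and was −0.048 without wt/wt replicate 1 alone and no block (adjusted p = 0.919). The difference in summed antagonist TPM, 14.7, ran from −6.44 to 31.3 with 1 replicate left out, negative without replicate 1, and was −4.98 over coding transcripts; in that sum the retained intron form of *Mxd1* is left out, and the cause of the change without replicate 1 was not tested. *Mycl* could not be tested with at least 10 counts in every library.

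Over all genes, 135 lower and 198 higher became 537 and 643 with DESeq2, 378 and 524 with no filter, 523 and 689 at an adjusted p below 0.05, 184 and 203 without the replicate block, 130 and 113 without both that block and wt/wt replicate 1, 41 and 89 with limma-trend and with the largest p, 47 and 88 without replicate 2, 25 and 49 with library size only, 10 and 49 without replicate 1, and 8 and 24 with effective length offsets. Same-numbered libraries did not deviate together (correlations over 15474 genes of −0.0114, −0.0146 and 0.0428), so pairing by number is not shown.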
